A study of Mus musculus with 2 samples.

Results

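The cells described here are *Adarb2*+ GABAergic cells of the embryonic mouse cortex, chosen as a candidate population of interneurons from the caudal ganglionic eminence (CGE). A cell was a member if it held at least 1 unique molecular identifier (UMI, 1 captured transcript) of *Gad1* or *Gad2*, at least 1 of *Adarb2* and at least 1 of *Prox1*, *Sp8*, *Nr2f2* or *Htr3a*, and none of *Lhx6*, *Nkx2-1*, *Isl1*, *Ebf1*, *Neurod6*, *Mki67* or *Top2a*. Of 16213 cells kept, 455 met this rule, which is 2.81%. The study asked how the DNA methyltransferase DNMT1 shapes *Sst*+ cortical interneurons and how these cells signal to cortical progenitors. The data are single-cell transcriptomes from 2 libraries of cerebral cortex at embryonic day (E) 16.5, and both are in the wild-type (WT) group. The labels name them as EomesDot and as controls of an *Eomes-Cre* mouse line. The study's text names C57BL6/J embryos for its single-cell data. The labels do not give the strain, nor whether the controls carried Cre, nor whether a library held 1 embryo or several, so the spread between libraries may be technical.

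GABAergic interneurons of the cortex are born in the ganglionic eminences of the ventral forebrain and reach the cortex by tangential migration. The medial ganglionic eminence (MGE) uses the transcription factor gene *Lhx6* and gives rise to cells that later express somatostatin or parvalbumin. The CGE gives rise to cells that later express vasoactive intestinal peptide, reelin or the serotonin receptor subunit gene *Htr3a*. *Nr2f2* and *Sp8* encode transcription factors used in the CGE, *Prox1* encodes a transcription factor needed for the migration and maturation of its interneurons, and *Adarb2* encodes a protein of the RNA-editing deaminase family that marks these cells in the adult cortex. The lateral ganglionic eminence (LGE) produces striatal projection neurons and olfactory bulb interneurons, many of which carry *Meis2*, and *Sp8* is also used there.

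The libraries held 9049 and 13556 barcodes with 46398156 and 64324236 UMIs. Cells were kept with 1500 to 60000 UMIs and under 10% mitochondrial UMIs, which left 5966 cells in replicate 1 and 10247 in replicate 2. The libraries shared 40 barcode sequences. Of the *Adarb2*+ cells, 2 carried such a sequence, and no sequence was a member in both libraries. Neither library was left out of a comparison.

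The rule was met by 184 cells of replicate 1, which is 3.08% of its cells (exact binomial 95% interval, 2.66 to 3.55), and by 271 cells of replicate 2, which is 2.64% (2.34 to 2.97). The mean was 2.86% ± 0.311 (SD, n = 2). Such intervals cover counting error only. The members had a median of 3832 UMIs in replicate 1 and 4072 in replicate 2. Their share varied with depth. It was 4.52% and 3.90% among cells with 1500 to 2500 UMIs, 5.96% and 3.20% among those with 2500 to 4000, 2.59% and 2.93% among those with 4000 to 8000, and 1.17% and 0.539% among cells with at least 8000 UMIs. The share was highest in the second of these ranges in replicate 1 and in the first in replicate 2, and lowest in the deepest cells in both. With every cell thinned to 1500 UMIs before the rule was applied, the share was 1.54%.

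The conditions differed in how many cells they removed. A *Gad1* or *Gad2* UMI was found in 2384 cells of replicate 1 and 3936 of replicate 2, an *Adarb2* UMI was also found in 900 and 1426 of these, and 396 and 617 held at least 1 of the 4 transcription factor and receptor markers. The excluded genes then removed the rest, most often *Neurod6*, a gene of excitatory neurons, which 107 and 192 of these cells carried. The members held a median of 20 *Adarb2* UMIs in replicate 1 and 13 in replicate 2. Just inside the rule, 14 cells of replicate 1 and 25 of replicate 2 held a single *Adarb2* UMI. Just outside it, 143 and 261 cells met every condition except that none of the 4 markers was detected, and 88.8% and 92.7% of these carried *Meis2*. A further 60 and 120 cells failed by a single UMI of 1 excluded gene. *Adarb2* was also detected in 13.5% and 10.3% of *Neurod6*+ cells without *Gad1* or *Gad2*, at a median depth of 7088 and 5779 UMIs, and 7.80% and 5.88% of those cells held 2 or more of its UMIs. The part of background in these UMIs was not tested. These values chose the members and are a description.

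Of the 5 markers, *Adarb2* had the most UMIs, at 7076 and 5349 CPM (CPM, the UMIs of a gene summed over the cells of a group and scaled to a total of 1000000). *Nr2f2* followed at 343 and 321 CPM, *Prox1* at 223 and 204 CPM, *Sp8* at 149 and 134 CPM and *Htr3a* at 41.2 and 57.4 CPM. These levels are not adjusted for gene length, so their order between genes is an order of UMIs only. *Nr2f2* was detected in 62.5% of the members of replicate 1 and 61.3% of those of replicate 2, *Prox1* in 49.5% and 44.3%, *Sp8* in 42.9% and 36.9%, and *Htr3a* in 12.5% and 17.7%. Only *Htr3a* was more frequent in replicate 2, and the exact intervals of the replicates overlap for each of these 4 genes. The *Neurod6*+ cells used from here on (5446) were chosen without *Gad1*, *Gad2* and also without *Adarb2*, unlike those of the paragraph above. In these cells, which should lack most of these genes, *Prox1* was detected in 1.88%, *Sp8* in 0.746% and *Htr3a* in 0.199%, whereas *Nr2f2* was detected in 16.8%. These cells were deeper, with a median of 7113 and 5821 UMIs. With cells thinned to 1500 UMIs, *Nr2f2* was detected in 38.6% and 34.7% of the members and in 8.01% and 7.42% of *Neurod6*+ cells.

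Most members carried few markers. A single marker was detected in 246 cells, 2 markers in 141, 3 in 58 and all 4 in 10. *Nr2f2* alone was the most frequent state, with 100 cells, followed by *Sp8* alone with 93, *Prox1* with *Nr2f2* in 77 and *Prox1* alone in 47. *Sp8* and *Nr2f2* were detected together in 63 cells, fewer than *Sp8* without *Nr2f2* (116) or *Nr2f2* without *Sp8* (218). The rule left out cells with none of the 4 markers, so these counts cannot show whether the 2 genes exclude each other. Cells with 1 marker had a median of 3628 UMIs and those with 4 had 5602, so a marker not detected is not shown to be absent.

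**Figure D1:**
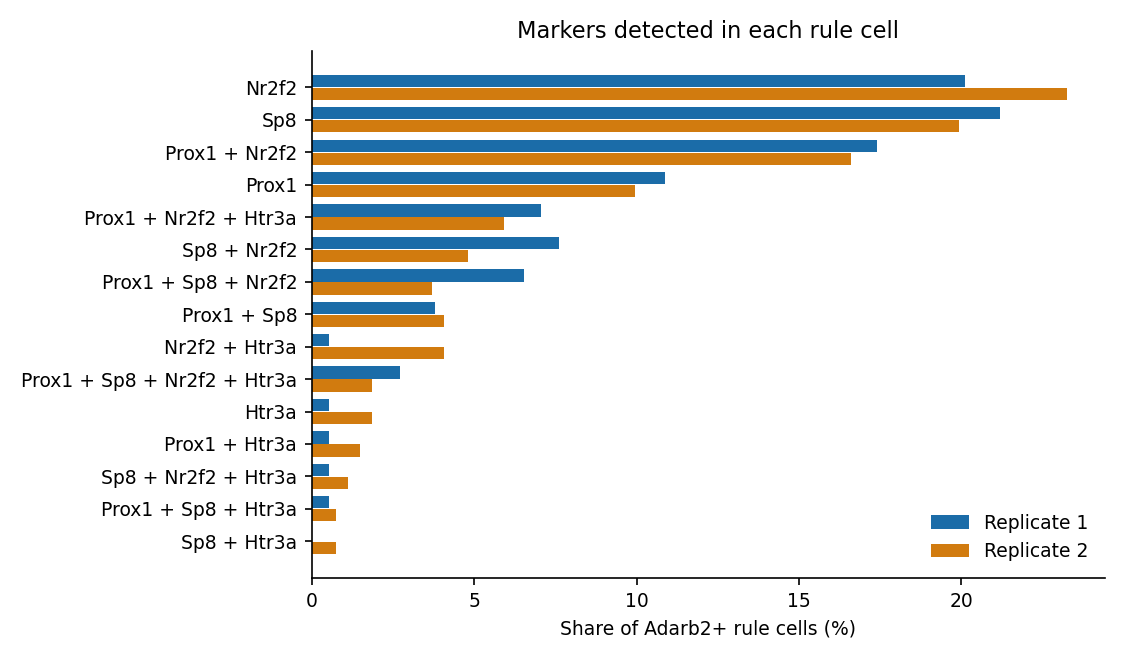
Share of the *Adarb2*+ cells (x axis, percent of the cells of each library) that carried each combination of the 4 markers *Prox1*, *Sp8*, *Nr2f2* and *Htr3a* (y axis), with 1 bar per replicate. *Nr2f2* alone held 20.1% and 23.2% of the cells and *Sp8* alone 21.2% and 19.9%.

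On the GRCm38.p6 assembly of RefSeq, *Adarb2* lies on chr13:8202526-8768762, *Prox1* on chr1:190118035-190170827, *Nr2f2* on chr7:70351946-70366746, *Sp8* on chr12:118846288-118852578 and *Htr3a* on chr9:48899213-48911152. The antisense gene *Prox1os*, on chr1:190170296-190217279, overlaps the start of *Prox1*, so its counts are not independent of a rule gene where they share sequence.

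Markers that the rule did not use showed that the members were a mixture, and the name CGE interneurons fitted only a part of them. *Meis2*, a transcription factor gene of the LGE and striatum and also of some cortical excitatory neurons, was detected in 106 of 184 members of replicate 1 (57.6%) and 170 of 271 of replicate 2 (62.7%). Its level was 2282 and 1936 CPM, between the 222 and 168 CPM of *Lhx6*+ cells and the 3419 and 3637 CPM of *Isl1* or *Ebf1*+ cells. It was detected in 17.3% and 18.1% of *Lhx6*+ cells and in 85.8% and 83.3% of *Neurod6*+ cells. All kept cells were clustered with the genes of the rule and of the other gates left out, which gave 27 clusters, of which 13 held members. The first cluster by members was led by *Nr3c2*, *Prox1os*, *Zbtb16*, *Npas1*, *St18* and *Sorcs3*. It held 244 members (53.6%), and 167 of these lacked *Meis2*. The second was led by *C79798*, *Pbx3*, *Tshz1*, *Grm8*, *Sdk2* and *Insyn2b*, with *Cpne4*, *Foxp2* and *Etv1* among its first 10 genes. It held 142 members (31.2%), of which 140 carried *Meis2*. The other 69 members (15.2%) were spread over 11 clusters, among them 24 in a cluster with the progenitor genes *Helt* and *Gsx2* among its leading genes, 13 in a cluster with the striatal genes *Drd2* and *Six3*, and 11 in a cluster with *Lhx1*, *Reln* and *Trp73*, which are genes of Cajal-Retzius cells.

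The first cluster held 52.2% of the members of replicate 1 and 54.6% of those of replicate 2, and the second held 31.5% and 31.0%. Of the *Meis2*- members, 93.3% lay in the first cluster, and of the *Meis2*+ members, 27.9% lay in the first and 50.7% in the second. The markers of the rule were spread unevenly over both. *Htr3a*+ members lay in the first cluster in 90.1% of cases and *Prox1*+ members in 73.5%. *Sp8*+ members without *Nr2f2* lay in the second cluster in 75.9% of cases and carried *Meis2* in 87.9%, whereas *Nr2f2*+ members without *Sp8* lay in the first cluster in 65.1% of cases and carried *Meis2* in 54.1%. A name for a cell type is not given to either cluster here, and the members are called *Adarb2*+ cells.

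**Figure D2:**
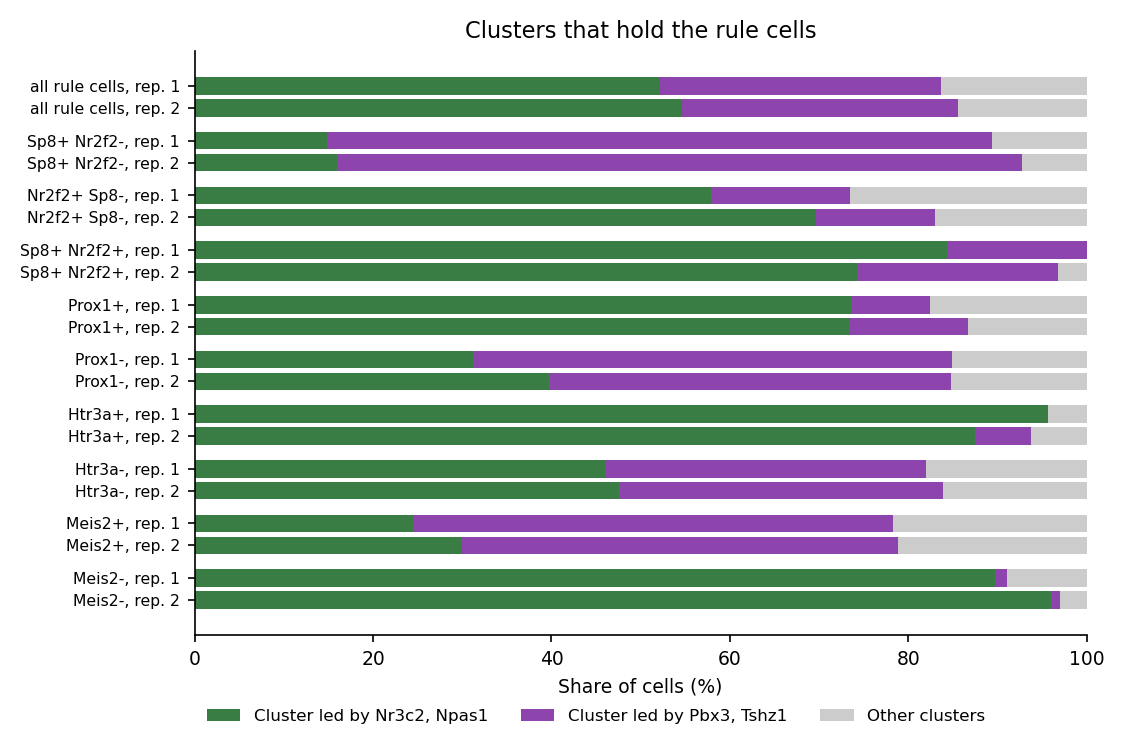
Share of *Adarb2*+ cells (x axis, percent) that lay in the cluster led by *Nr3c2* and *Npas1* (green), in the cluster led by *Pbx3* and *Tshz1* (purple) and in other clusters (grey), for all members and for members split by detected markers (y axis, 1 bar per replicate). *Sp8*+ *Nr2f2*- cells were mostly in the second cluster, and *Htr3a*+ and *Meis2*- cells mostly in the first, in both replicates.

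The members of the 2 clusters are set side by side as a description only, since clusters were made from these same genes. *Npas3*, a transcription factor gene of interneurons, gave 3276 and 2822 CPM in the first cluster and 316 and 250.4 CPM in the second. *Nr2f1*, the closest relative of *Nr2f2*, gave 481 and 420.3 CPM and 57.5 and 86.98 CPM. *Cnr1*, the cannabinoid receptor gene of later *Cck*+ interneurons, gave 367 and 322 CPM in the first and 61.1 and 15.8 CPM in the second. All 3 genes were higher in the first cluster in both libraries. The second had the higher levels of *Etv1*, at 467 and 490.3 CPM against 20.7 and 11.6 CPM, of *Foxp2*, at 1909 and 1423 CPM against 51.8 and 98.01 CPM, and of *Zic1*, at 259 and 248 CPM against 0 and 3.32 CPM. *Calb2*, the gene of the calcium-binding protein calretinin, was at 392 and 124 CPM in the second cluster and at 0 and 3.32 CPM in the first. In replicate 1, 87 of its 109 UMIs in the members lay in 2 cells of the second cluster, which held 64 and 23, so its level there rests mostly on these cells. *Sp8* itself was detected in both, at 153 and 76.4 CPM in the first and 223 and 271 CPM in the second. *Erbb4*, the neuregulin receptor gene that guides tangential migration, was high in both, at 14598 and 11314 CPM and 5396 and 4658 CPM.

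To see which genes set the *Adarb2*+ cells apart from the other GABAergic cells of the same libraries, UMIs were summed per library and gate and tested with edgeR. *Lhx6*+ cells (557) carried *Gad1* or *Gad2* and *Lhx6* but neither *Adarb2* nor the genes that mark the other gates or dividing cells, and stand for the MGE lineage. Against them, 909 of 15467 genes tested passed an adjusted p of 0.05 (5.88%), of which 461 were higher in the *Adarb2*+ cells (2.98%) and 448 lower (2.90%). Among genes with at least 20 CPM in the higher and 10 UMIs in the lower group, the 5 with the largest rise were *Nr3c2*, *Slc4a4*, *Synpr*, *Sdk2* and *Dpf3*. *Nr3c2*, the mineralocorticoid receptor gene, gave 305 and 225 CPM in *Adarb2*+ cells and 20.9 and 0 CPM in *Lhx6*+ cells (log2 fold change 5.01, SE 0.33, edgeR adjusted p = 6.1e-12). *Synpr*, which encodes the synaptic vesicle protein synaptoporin, gave 129 and 128 CPM against 6.60 and 5.76 CPM (log2 fold change 4.43, SE 0.27, edgeR adjusted p = 1.2e-12). *Sdk2*, a cell adhesion gene, gave 149 and 137 CPM against 11.01 and 6.48 CPM (log2 fold change 4.15, SE 0.26, edgeR adjusted p = 2.1e-12), and *Dpf3*, a chromatin factor gene, 97.6 and 54.9 CPM against 3.30 and 5.04 CPM (log2 fold change 4.10, SE 0.38, edgeR adjusted p = 7.0e-09). In each of these 4 genes both libraries of *Adarb2*+ cells were above both libraries of *Lhx6*+ cells, a direction by which these genes were chosen. *Slc4a4*, a bicarbonate transporter gene, gave 123 and 116 CPM against 5.50 and 4.32 CPM (log2 fold change 4.67, SE 0.31, edgeR adjusted p = 1.2e-11), but only with the *Meis2*+ members included: without them the log2 fold change was 1.78 and the edgeR adjusted p 0.15.

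Of the 22 genes of the CGE list that the rule did not use, 17 were tested, 8 were higher and 4 lower in *Adarb2*+ than in *Lhx6*+ cells, with a median log2 fold change of 1.17 against 0.00 over all genes tested. *Nr2f1* was at 292 and 280.4 CPM in *Adarb2*+ cells and 172 and 101 CPM in *Lhx6*+ cells (log2 fold change 1.17, SE 0.16, edgeR adjusted p = 6.9e-06). *Cnr1* was at 199.9 and 184 CPM against 26.4 and 23.7 CPM (log2 fold change 2.99, SE 0.18, edgeR adjusted p = 9.0e-13). The nuclear factor genes *Nfib* and *Nfix*, which act in neuronal differentiation, were higher by 2.29 and 2.14 on the log2 scale, and *Npas3* by 0.64, from 1014 and 1166 CPM to 1681 and 1588 CPM. *Cxcl14*, a chemokine gene, passed as well, on 9 and 14 UMIs in *Adarb2*+ cells and 2 and 0 in *Lhx6*+ cells, but did not pass with DESeq2 or with likely doublets removed. *Calb2* rose by 2.38, from 20.9 and 11.5 CPM to 128 and 43.1 CPM, but among members with at least 2 of the 4 markers its log2 fold change was -0.78 with an edgeR adjusted p of 0.57, and 79.8% of its UMIs in the members of replicate 1 came from the 2 cells named above and 47.1% of those in replicate 2 from 2 cells. *Npas1*, a transcription factor gene of interneuron progenitors, gave 77.6 and 43.1 CPM against 44.02 and 38.9 CPM and did not pass (log2 fold change 0.55, SE 0.30, edgeR adjusted p = 0.4). Of the list's other genes *Id2* was at 56.4 and 72.6 CPM in the members, *Igf1* at 14.1 and 8.45 CPM, *Egln3* at 9.41 and 7.60 CPM and *Ndnf* at 1.18 and 6.76 CPM, *Lamp5*, *Crh* and *Scgn* held at most 2 UMIs in a library, and *Sncg* held none.

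The genes of the list that fell were *Reln*, *Cck*, *Kit* and *Zeb2*. *Reln*, which encodes the secreted protein reelin, gave 92.9 and 88.7 CPM in *Adarb2*+ cells and 174 and 185 CPM in *Lhx6*+ cells (log2 fold change -0.95, SE 0.19, edgeR adjusted p = 0.0013). This order was not kept without the *Meis2*+ members, where the log2 fold change was 0.20 (edgeR adjusted p = 0.79). *Zeb2*, a transcription factor gene needed for the specification of MGE interneurons, gave 1218 and 928 CPM against 1776 and 1712 CPM (log2 fold change -0.67, SE 0.11, edgeR adjusted p = 0.00019). *Cck*, the cholecystokinin gene, gave 8.23 and 3.38 CPM against 8.80 and 45.3 CPM, and *Kit*, a receptor tyrosine kinase gene, 9.41 and 1.69 CPM against 12.1 and 25.9 CPM, so both were low in these cells and the difference lay mainly in replicate 2. The calls of *Cck*, *Kit* and *Zeb2* were lost without the *Meis2*+ members, which left 179 cells, at log2 fold changes of -1.78, -1.51 and -0.43 (edgeR adjusted p = 0.24, 0.35 and 0.079).

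Of the 17 genes of the MGE list, 15 were tested and 12 were lower in *Adarb2*+ cells, 1 higher, with a median log2 fold change of -2.39, which was the same with *Lhx8*, not detected in the members, set to its bound. *Sst* gave 23.5 and 20.3 CPM in *Adarb2*+ cells and 364 and 416 CPM in *Lhx6*+ cells (log2 fold change -4.14, SE 0.17, edgeR adjusted p = 8.7e-16), and *Npy*, the gene of neuropeptide Y, 15.3 and 32.1 CPM against 546 and 461 CPM (log2 fold change -4.29, SE 0.20, edgeR adjusted p = 6.6e-15). The transcription factor genes of the lineage fell with them. *Maf* was at 59.97 and 57.4 CPM against 693 and 692 CPM (log2 fold change -3.52, SE 0.15, edgeR adjusted p = 2.2e-15), *Sox6* at 252 and 274 CPM against 1512 and 1334 CPM (log2 fold change -2.37, SE 0.13, edgeR adjusted p = 1.5e-13), and *Mef2c*, *Satb1* and *Cux2* fell by 2.39, 1.55 and 3.88 on the log2 scale. *Nxph1*, which encodes a neurexin ligand, was at 305 and 193 CPM against 3007 and 3472 CPM (log2 fold change -3.67, SE 0.23, edgeR adjusted p = 2.1e-12). The groups did not overlap in any of these genes. This is a description only, since called genes were named in part for the same direction in both libraries. The share of all genes without overlap was not counted. *Zic1*, the member that rose, gave 91.7 and 97.1 CPM against 13.2 and 14.4 CPM (log2 fold change 2.81, SE 0.25, edgeR adjusted p = 3.9e-09). It came mainly from the second cluster, as given above. Without the *Meis2*+ members its log2 fold change was 1.53 (edgeR adjusted p = 0.019), which rests on few cells. It was detected in 3 of 78 and 3 of 101 of the *Meis2*- members. The genes outside the lists with the largest fall were *Fam135b*, at 12.9 and 10.1 CPM against 333 and 335 CPM (log2 fold change -4.83, SE 0.20, edgeR adjusted p = 8.7e-16), and *Dpp10*, which encodes a potassium channel partner, at 44.7 and 59.96 CPM against 879 and 1065 CPM (log2 fold change -4.15, SE 0.22, edgeR adjusted p = 1.1e-13).

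**Figure D3:**
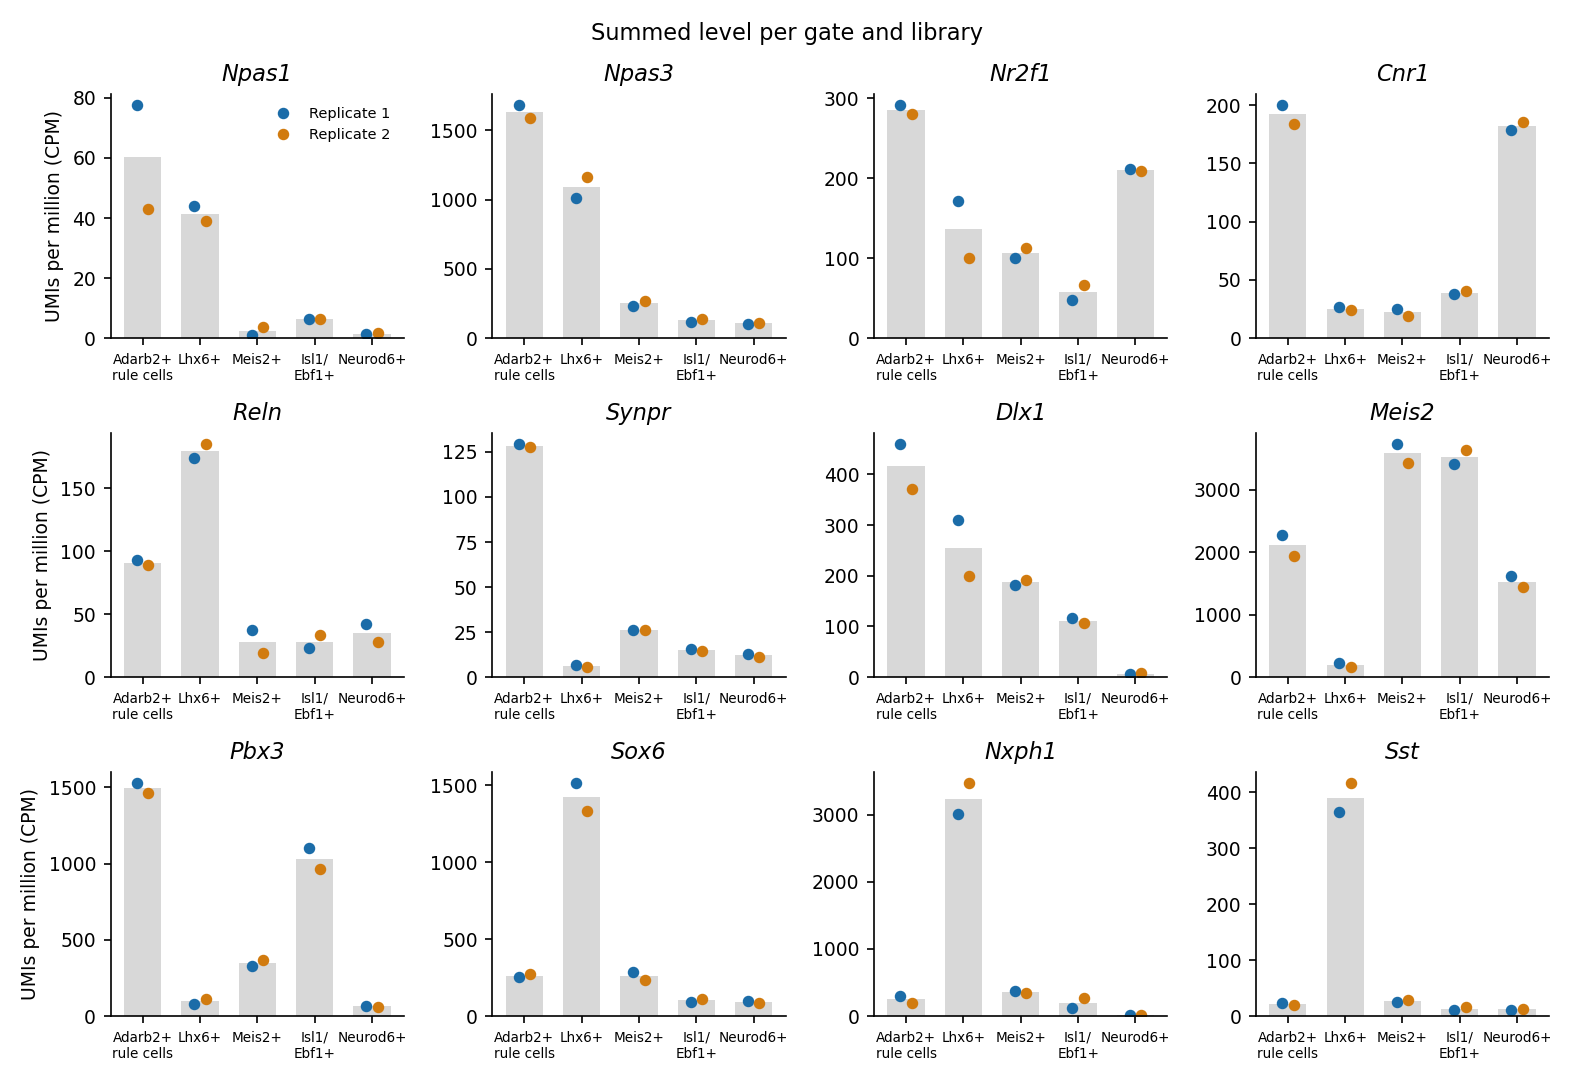
Level of 12 genes (y axis, CPM, each panel with its own scale from 0) in *Adarb2*+ cells, *Lhx6*+ cells, *Meis2*+ cells, *Isl1* or *Ebf1*+ cells and *Neurod6*+ cells (x axis). Points are the 2 replicates and grey bars their mean. *Synpr* was highest in *Adarb2*+ cells, *Sst*, *Sox6* and *Nxph1* were highest in *Lhx6*+ cells, and *Meis2*, which the *Meis2*+ cells were chosen by, was at a level in *Adarb2*+ cells between those of *Lhx6*+ and *Meis2*+ cells.

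Several genes of the LGE and striatum were also higher in *Adarb2*+ than in *Lhx6*+ cells. Of 18 tested, 8 rose and 1, *Bcl11b*, fell, with a median log2 fold change of 1.31. *Pbx3*, a homeobox gene, gave 1527 and 1465 CPM against 78.1 and 113 CPM (log2 fold change 3.98, SE 0.15, edgeR adjusted p = 7.7e-16). *Tshz1*, a zinc finger gene needed by olfactory bulb interneurons, gave 207 and 157 CPM against 80.3 and 58.3 CPM (log2 fold change 1.45, SE 0.16, edgeR adjusted p = 1.6e-07). *Foxp2*, a forkhead gene of striatal neurons, gave 734 and 589 CPM against 90.2 and 44.6 CPM (log2 fold change 3.40, SE 0.17, edgeR adjusted p = 1.9e-14). Part of this list rested on the *Meis2*+ members. Without them *Foxp2*, *Foxp4*, *Six3* and *Tshz1* had log2 fold changes of -1.13, -1.13, -0.39 and -0.11, with edgeR adjusted p of 0.13, 0.73, 0.9 and 0.93, whereas *Pbx3* stayed at 2.95 (edgeR adjusted p = 7.7e-14). In this setting 600 genes passed, among them 453 of the 909 genes called with all members (49.8%). The setting also has fewer cells, 179 in place of 455.

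Receptors that steer migration differed as well. Of 35 guidance genes tested, 7 rose and 9 fell in *Adarb2*+ cells against *Lhx6*+ cells, with a median log2 fold change of -0.09. *Ackr3*, the scavenging receptor for the chemokine CXCL12, gave 14.1 and 13.5 CPM against 329 and 241 CPM (log2 fold change -4.30, SE 0.26, edgeR adjusted p = 1.9e-12), and *Cxcr4*, its signalling receptor, 10.6 and 10.1 CPM against 28.6 and 39.6 CPM (log2 fold change -1.69, SE 0.43, edgeR adjusted p = 0.013). *Epha3* and *Epha5*, which encode ephrin receptors, fell by 1.37 and 0.72 on the log2 scale, and *Efna5*, an ephrin gene, by 1.07. *Robo2*, a receptor gene for Slit proteins, rose from 578 and 455 CPM to 1678 and 1348 CPM (log2 fold change 1.60, SE 0.14, edgeR adjusted p = 1.6e-09), *Slit1* rose by 2.29 and the netrin receptor genes *Dcc* and *Unc5c* by 1.06 and 0.87. Without the *Meis2*+ members *Robo2* and *Dcc* were no longer called, at -0.06 and 0.01, and neither was *Cxcr4*, at -0.53, while *Unc5c* passed in the opposite direction, at -0.90 (edgeR adjusted p = 0.034). The call of *Cxcr4* was also lost with DESeq2. *Erbb4* did not pass, at 8953 and 7623 CPM against 10762 and 9539.6 CPM (log2 fold change -0.24, SE 0.14, edgeR adjusted p = 0.43), and in a fit of these 2 gates alone it passed, at -0.27 (edgeR adjusted p = 0.0055).

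Over all genes 5.88% passed against *Lhx6*+ cells, 2.98% higher and 2.90% lower, and the counts of the lists that follow are a description to be set beside these shares. Of 18 glutamate receptor genes tested, 8 fell and 2 rose in *Adarb2*+ cells against *Lhx6*+ cells, with a median log2 fold change of -0.39. *Gria1*, an AMPA receptor subunit gene, gave 159 and 126 CPM against 1912 and 2299 CPM (log2 fold change -3.85, SE 0.16, edgeR adjusted p = 1.1e-15). *Grm5*, a metabotropic receptor gene, gave 17.6 and 32.9 CPM against 401 and 599 CPM (log2 fold change -4.21, SE 0.23, edgeR adjusted p = 2.3e-13), and the kainate receptor gene *Grik1* 29.4 and 28.7 CPM against 317 and 332 CPM (log2 fold change -3.44, SE 0.18, edgeR adjusted p = 6.6e-14). Of 34 adhesion and synaptic genes, 15 fell and 7 rose (median -0.27). *Tenm2* fell by 1.72 and *Cntn4* by 1.65 on the log2 scale, and *Pcdh9*, a protocadherin gene, rose from 517 and 479.9 CPM to 2285 and 2215 CPM (log2 fold change 2.22, SE 0.12, edgeR adjusted p = 8.3e-14). Of 15 GABA receptor and chloride transporter genes, 1 rose and 2 fell, among them *Gabrg3* by 2.39 (median -0.47). Of 13 serotonin, acetylcholine and opioid receptor genes, the nicotinic receptor gene *Chrna7* rose by 1.30 and the muscarinic receptor gene *Chrm3* fell by 3.92 (median -0.10). Maturation genes were split, with 5 of 22 higher, such as *Tubb3* and *Stmn2*, and 3 lower, *Rbfox1*, *Syt1* and *Elavl2* (median -0.10). Of 13 genes that GABAergic lineages share, 3 were higher, *Dlx1*, *Dlx6os1* and *Pax6*, and 2 were lower (median 0.37).

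The *Meis2*+ cells (706) carried *Gad1* or *Gad2* and *Meis2* but neither *Adarb2* nor any excluded gene of the rule. Against them 942 genes passed (6.09%), 494 higher in *Adarb2*+ cells (3.19%) and 448 lower (2.90%). Here 10 of the 17 CGE genes tested were higher and none lower, with a median log2 fold change of 1.48. *Npas1* gave 77.6 and 43.1 CPM in *Adarb2*+ cells and 0.906 and 3.77 CPM in *Meis2*+ cells (log2 fold change 4.49, SE 0.45, edgeR adjusted p = 3.7e-08). *Npas3* gave 1681 and 1588 CPM against 235 and 271 CPM (log2 fold change 2.76, SE 0.12, edgeR adjusted p = 2.3e-14), *Cnr1* 199.9 and 184 CPM against 25.4 and 18.8 CPM (log2 fold change 3.23, SE 0.17, edgeR adjusted p = 3.2e-13) and *Reln* 92.9 and 88.7 CPM against 37.1 and 18.8 CPM (log2 fold change 1.86, SE 0.25, edgeR adjusted p = 6.8e-06). The *Adarb2*+ cells were higher in both libraries in each of these genes, which is given as a description. *Erbb4* gave 8953 and 7623 CPM against 1374 and 1372 CPM (log2 fold change 2.66, SE 0.15, edgeR adjusted p = 5.5e-13). The GABAergic lineage genes *Dlx1* and *Dlx2* were higher by 1.20 and 0.63 on the log2 scale.

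Of 18 LGE and striatal genes tested, 10 were lower in *Adarb2*+ than in *Meis2*+ cells and 3 higher. *Foxp1* gave 156 and 156 CPM against 1459 and 1258 CPM (log2 fold change -3.04, SE 0.15, edgeR adjusted p = 5.2e-14), the retinoic acid receptor gene *Rarb* 12.9 and 24.5 CPM against 183 and 155 CPM (log2 fold change -3.02, SE 0.21, edgeR adjusted p = 3.4e-11) and *Zfhx3* 179.9 and 138 CPM against 1188 and 862 CPM (log2 fold change -2.62, SE 0.15, edgeR adjusted p = 2.4e-12). *Pbx3*, *Foxp2* and *Tshz1* were the 3 that were higher, by 2.17, 1.28 and 1.08. Without the *Meis2*+ members *Foxp2* was lower than in *Meis2*+ cells, at -3.25 (edgeR adjusted p = 4.0e-09), *Tshz1* was at -0.49 and not called, and *Pbx3* was at 1.12 (edgeR adjusted p = 3.1e-06). *Etv1*, a transcription factor gene of olfactory bulb interneurons, gave 166 and 179.9 CPM against 134 and 57.03 CPM (log2 fold change 1.03, SE 0.23, edgeR adjusted p = 0.0035), and the direction turned without the *Meis2*+ members, to -3.18 with an edgeR adjusted p of 0.00015. *Calb2* was higher by 2.26, and -0.89 among members with at least 2 markers. Progenitor and glial markers summed to 939 and 1257 CPM in *Adarb2*+ cells and 1777 and 2551 CPM in *Meis2*+ cells. Of the 12 in that list 5 were lower and 1 was higher, and their part in the other differences was not tested. *Ttr*, a choroid plexus gene and the gene with the largest fall, rested on replicate 2, where it gave 1638 CPM in *Meis2*+ cells against 3.62 CPM in replicate 1, and with likely doublets removed its log2 fold change was -0.11 (edgeR adjusted p = 0.96).

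Against *Isl1* or *Ebf1*+ cells (479), which stand for striatal projection neurons, 1156 genes passed (7.47%), 559 higher (3.61%) and 597 lower (3.86%). The same number of CGE genes, 10 of 17, was higher and none lower, with a median of 2.07. *Npas3* gave 1681 and 1588 CPM in *Adarb2*+ cells and 117 and 139 CPM in *Isl1* or *Ebf1*+ cells (log2 fold change 3.73, SE 0.13, edgeR adjusted p = 1.1e-16), and *Erbb4* 8953 and 7623 CPM against 544 and 852 CPM (log2 fold change 3.63, SE 0.15, edgeR adjusted p = 3.6e-15). *Dlx1* was at 459.8 and 372 CPM against 117 and 106 CPM (log2 fold change 1.95, SE 0.15, edgeR adjusted p = 1.7e-10). The striatal genes *Bcl11b*, *Rarb* and *Foxp1* fell by 2.17, 4.10 and 2.51 on the log2 scale, and 9 of 18 in their list fell in all, while *Pbx3* and *Tshz1* rose. *Zfp521*, *Pou3f1* and *Zfp503*, which encode zinc finger or POU domain proteins, had the largest falls among genes with at least 10 UMIs in the lower group, of 4.82, 4.51 and 4.43. The 8 endothelial and mural markers summed to 535 and 97.9 CPM in the *Isl1* or *Ebf1*+ cells and to 22.3 and 51.5 CPM in *Adarb2*+ cells, where *Kdr* and *Kcnj8* were at 0, and 6 of the 8 were lower in *Adarb2*+ cells. Erythroid markers summed to 10919 and 1566 CPM in the *Isl1* or *Ebf1*+ cells, and 3 of 5 tested were lower in *Adarb2*+ cells. The part of these markers in the differences was not tested. The 3 comparisons share the *Adarb2*+ sums. *Nr3c2* was among the 5 genes with the largest rise in each, and *Pdzrn3* and *Galnt14* were among them against *Meis2*+ and *Isl1* or *Ebf1*+ cells. *Pdzrn3*, a ubiquitin ligase gene, was at 459 and 332 CPM in *Adarb2*+ cells, 21.7 and 25.3 CPM in *Meis2*+ cells and 26.1 and 9.71 CPM in *Isl1* or *Ebf1*+ cells.

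To describe how the members differ among themselves, the 116 *Sp8*+ members without *Nr2f2* were compared with the 218 *Nr2f2*+ members without *Sp8*. Of 6276 genes tested 247 passed (3.94%), 146 higher in *Sp8*+ cells (2.33%) and 101 lower (1.61%). The groups differed in *Meis2* as well, which was at 5071 and 3643 CPM in *Sp8*+ and 1384 and 1094 CPM in *Nr2f2*+ cells, and in the clusters that held them, so the split by marker and the split by cluster cannot be told apart. The fit held 4 sums, with the library as a block. With DESeq2 69 genes passed. Likely doublets made up 0% and 2.90% of the *Sp8*+ and 7.23% and 9.63% of the *Nr2f2*+ cells, and with them removed 401 genes passed. *Robo2* gave 4082 and 3432 CPM in *Sp8*+ cells and 530.0 and 496 CPM in *Nr2f2*+ cells (log2 fold change 2.91, SE 0.09, edgeR adjusted p = 9.2e-09). *Unc5c* gave 958 and 715 CPM against 50.2 and 26.1 CPM (log2 fold change 4.54, SE 0.21, edgeR adjusted p = 2.8e-07). Both encode guidance receptors. As a description, in both genes the libraries of *Sp8*+ cells lay far above those of *Nr2f2*+ cells. *Etv1* gave 527 and 588 CPM against 32.7 and 29.4 CPM (log2 fold change 4.22, SE 0.23, edgeR adjusted p = 1.2e-06). *Sgcd*, a sarcoglycan gene, gave 1089 and 1272 CPM against 111 and 103 CPM (log2 fold change 3.52, SE 0.16, edgeR adjusted p = 2.8e-07). *Zic1*, *Nectin3* and *Cpne4* met the filter on low counts through the *Sp8*+ group, in which they were high, and their values are given as a description. *Zic1* held 48 and 79 UMIs in *Sp8*+ cells and 6 and 18 in *Nr2f2*+ cells, and *Nectin3*, an adhesion gene, 34 and 37 against 3 and 9. *Nxph1* was higher by 3.41 and *Pbx3* by 1.42. *Cpne4*, also among the 5 genes with the largest rise, differed between libraries, at 349 and 44.9 CPM in *Sp8*+ cells, on 80 and 13 UMIs, against 7.54 and 16.3 CPM, on 3 and 10 UMIs, and was not called with DESeq2.

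The CGE list was split by the same comparison. Of its 22 genes outside the rule 11 passed the filter on low counts, and 5 of these were lower in *Sp8*+ cells and 2 higher. *Npas1*, *Reln* and *Calb2* reached that filter only through the group in which they were high, so the count is a description of the genes tested and not of the list. *Nr2f1* was at 78.4 and 76.03 CPM in *Sp8*+ and 362 and 393 CPM in *Nr2f2*+ cells (log2 fold change -2.25, SE 0.22, edgeR adjusted p = 0.00011), *Npas3* at 654 and 505 CPM against 1728 and 1868 CPM (log2 fold change -1.60, SE 0.13, edgeR adjusted p = 3.8e-05) and *Cnr1* at 74.1 and 41.5 CPM against 221 and 222 CPM (log2 fold change -1.93, SE 0.28, edgeR adjusted p = 0.0018). *Npas1* held 53 and 36 UMIs in *Nr2f2*+ cells and 2 and 3 in *Sp8*+ cells, at 133 and 58.8 CPM and 8.71 and 10.4 CPM. *Reln* gave 111 and 127 CPM and 34.9 and 24.2 CPM in the same order. Both were called with edgeR, and neither passed with DESeq2 or with cells thinned to 1500 UMIs. *Synpr* and *Calb2* were the 2 that were higher in *Sp8*+ cells. *Calb2* gave 87.1 and 149 CPM in *Sp8*+ cells, on 20 and 43 UMIs, and 0 and 3.27 CPM in *Nr2f2*+ cells, on 0 and 2 UMIs. The 2 cells of replicate 1 with most of its UMIs carried neither *Sp8* nor *Nr2f2* and are in neither group. In replicate 2 the 2 cells with the most, 16 and 8 UMIs, are in the *Sp8*+ group. They held 24 of its 43 UMIs, so the level there rests mostly on these cells. *Synpr* gave 222 and 297 CPM against 75.4 and 29.4 CPM (log2 fold change 2.48, SE 0.34, edgeR adjusted p = 0.0011).

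The promoters of 2 genes on opposite sides of this split are shown, since both genes were called in it and since SP8 belongs to a family of zinc finger proteins that bind the GC box and NR2F2 to the nuclear receptors that bind a half-site. The windows are the 250 bases before a RefSeq start on GRCm38.p6, written in the direction of the gene. *Nr2f1* and *Etv1* have 2 such windows each, and only the most upstream of each is shown and described. *Nr2f1*, higher in *Nr2f2*+ cells, has its window at chr13:78198874-78199123 on the minus strand, and *Etv1*, higher in *Sp8*+ cells, at chr12:38779832-38780081 on the plus strand. Capitals mark the GC box (GGGCGG or CCGCCC).
Nr2f1: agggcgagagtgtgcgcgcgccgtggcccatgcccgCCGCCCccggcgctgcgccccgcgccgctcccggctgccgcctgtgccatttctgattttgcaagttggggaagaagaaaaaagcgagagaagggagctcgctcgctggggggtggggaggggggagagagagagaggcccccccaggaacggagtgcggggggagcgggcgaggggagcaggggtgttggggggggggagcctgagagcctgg
Etv1: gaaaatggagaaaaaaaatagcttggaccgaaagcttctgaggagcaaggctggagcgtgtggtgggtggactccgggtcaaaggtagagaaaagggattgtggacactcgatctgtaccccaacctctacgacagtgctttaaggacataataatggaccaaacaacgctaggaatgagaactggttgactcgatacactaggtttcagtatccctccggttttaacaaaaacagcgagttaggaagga
The *Nr2f1* window holds 1 GC box and has a GC content of 72%, and the *Etv1* window holds none and has a GC content of 46.4%. The window of *Zic1*, which had more UMIs in *Sp8*+ cells, holds 2 GC boxes, so the count of boxes does not follow the side of the split. Neither of the windows shown holds the half-site AGGTCA or its reverse complement TGACCT. Among 32851 RefSeq windows of the same length, 32.7% hold a GC box and 14.0% the half-site. These matches describe the letters of the windows and are no evidence of binding.

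Genes that were lower in *Sp8*+ cells included several ligands and receptors of migration. Of 28 guidance genes tested 10 were lower and 5 higher, where 1.61% of all genes tested were lower and 2.33% higher. *Unc5d*, among the lower, held only 2 and 14 UMIs in *Sp8*+ cells and needed the *Nr2f2*+ group to meet the filter on low counts. The count is therefore a description of the genes tested. *Nrg3*, a neuregulin gene, gave 91.5 and 328 CPM in *Sp8*+ cells and 1288 and 1703 CPM in *Nr2f2*+ cells (log2 fold change -2.86, SE 0.23, edgeR adjusted p = 3.2e-05), and *Nrg1* 200.4 and 211 CPM against 884 and 648 CPM (log2 fold change -1.82, SE 0.17, edgeR adjusted p = 9.0e-05). *Robo1* was lower, at 231 and 283 CPM against 738 and 707 CPM (log2 fold change -1.44, SE 0.16, edgeR adjusted p = 0.00025), the opposite of *Robo2*. *Epha5* fell by 1.35, *Efna5* by 1.73 and *Epha4* by 1.26 on the log2 scale, and *Efnb2*, an ephrin gene, rose by 1.18, of which *Epha4* and *Efnb2* were not called with DESeq2. *Bmper*, a regulator of bone morphogenetic proteins, gave 30.5 and 41.5 CPM against 394 and 255 CPM, on 7 and 12 against 157 and 156 UMIs. *Chl1*, an adhesion gene, held 4 and 14 UMIs in *Sp8*+ cells and 115 and 166 in *Nr2f2*+ cells, and *Chsy3*, a chondroitin synthase gene, 6 and 7 against 97 and 107. *Gm20642*, which completes the 5 genes with the largest fall, gave 0 and 34.6 CPM against 138 and 142 CPM and was not called with DESeq2. These 4 genes were called lower with edgeR, but they met the filter of 10 counts in 2 sums through the *Nr2f2*+ group, in which they were high. *Dlx1* and *Dlx2*, GABAergic genes shared by both groups, had log2 fold changes of -0.13 and 0.29 that did not pass.

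**Figure D4:**
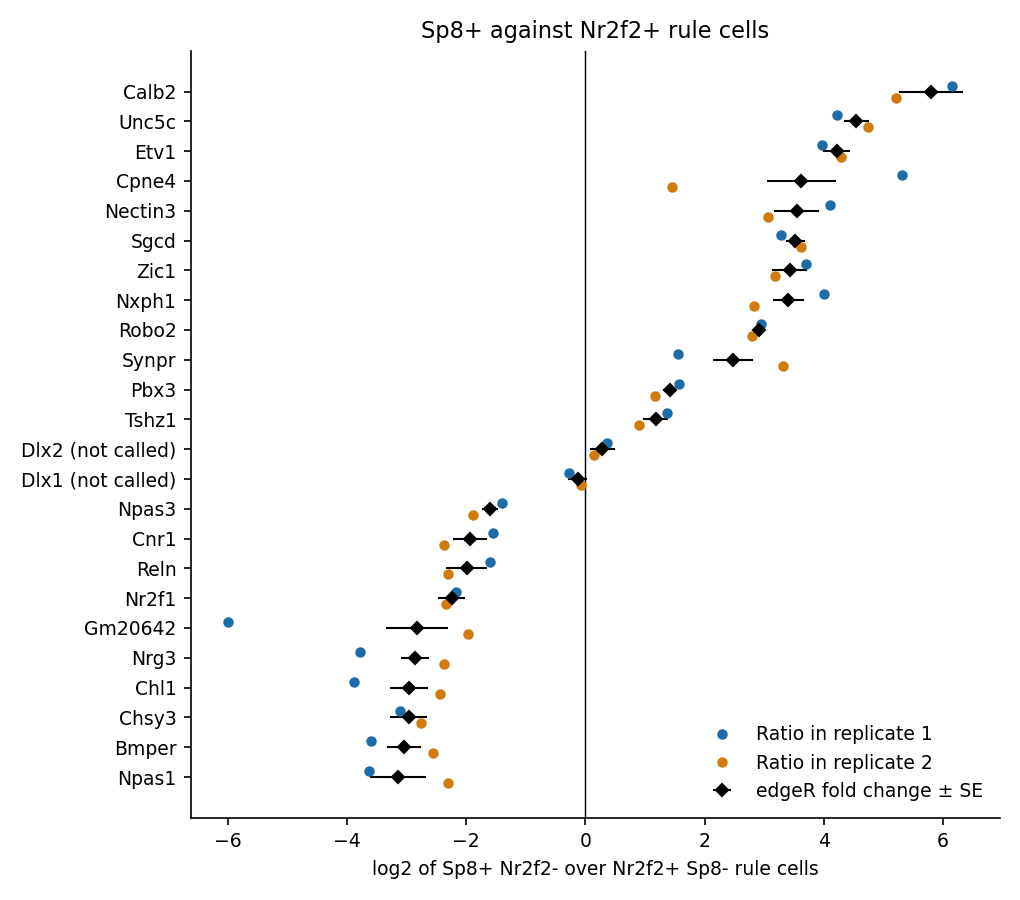
Log2 ratio of the *Sp8*+ *Nr2f2*- to the *Nr2f2*+ *Sp8*- members (x axis) for 24 genes (y axis). Coloured points are the ratio in each replicate with 0.5 counts added, black diamonds the edgeR log2 fold change with its SE as a bar. *Unc5c*, *Etv1* and *Robo2* were higher in *Sp8*+ cells and *Npas3*, *Nr2f1* and *Cnr1* lower in both replicates, and *Cpne4* and *Gm20642* differed most between replicates.

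*Prox1*+ members (211) and *Prox1*- members (244) differed in fewer genes. Each *Prox1*- member had met the rule through *Sp8*, *Nr2f2* or *Htr3a*, and the 93 members with *Sp8* alone are all *Prox1*-. The rule thus ties this split in part to the *Sp8* split above, and the 2 cannot be told apart. Of 7246 tested 152 passed (2.10%), 49 higher in *Prox1*+ cells (0.676%) and 103 lower (1.42%). *Npas3* was at 2345 and 2255 CPM in *Prox1*+ and 969.7 and 1032 CPM in *Prox1*- cells (log2 fold change 1.18, SE 0.10, edgeR adjusted p = 1.7e-08), and it and *Nr2f1*, higher by 0.89, were the 2 genes of the CGE list that passed among 11 tested. *Prox1os* rose by 1.99, and it overlaps the gene that made the groups. *Robo2* gave 741 and 602 CPM against 2683 and 1970.1 CPM (log2 fold change -1.80, SE 0.11, edgeR adjusted p = 1.8e-11), *Unc5c* 29.5 and 46.4 CPM against 629 and 409 CPM (log2 fold change -3.71, SE 0.24, edgeR adjusted p = 7.4e-11) and *Etv1* 43.2 and 70.6 CPM against 297 and 271 CPM (log2 fold change -2.30, SE 0.23, edgeR adjusted p = 2.0e-07). Of 12 LGE and striatal genes tested 7 were lower and none higher, among them *Tshz1*, at 61.4 and 66.9 CPM against 363 and 232 CPM (log2 fold change -2.18, SE 0.23, edgeR adjusted p = 3.4e-07). *Prox1*- cells lay in the second cluster in 48.4% of cases and *Prox1*+ cells in 11.4%. *Meis2* was at 804 and 1369 CPM in *Prox1*+ and 3867 and 2408 CPM in *Prox1*- cells. With DESeq2 19 genes passed, 2 higher and 17 lower.

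*Htr3a*+ members were few, 23 and 48 cells, and 36 of 7826 genes passed (0.460%) against the 384 *Htr3a*- members, 21 higher (0.268%) and 15 lower (0.192%). The count ran from 16 to 192 over the alternative settings, and the share of higher genes from 30.7% to 68.8%. *Cnr1* gave 353 and 423 CPM in *Htr3a*+ cells and 174 and 122 CPM in *Htr3a*- cells (log2 fold change 1.51, SE 0.22, edgeR adjusted p = 0.031), *Npas3* 2875 and 2642 CPM against 1477 and 1314 CPM (log2 fold change 1.05, SE 0.14, edgeR adjusted p = 0.027) and *Cdh4*, a cadherin gene, 418 and 345 CPM against 131 and 103 CPM (log2 fold change 1.77, SE 0.18, edgeR adjusted p = 0.015). *Kcnq5*, a potassium channel gene, rose by 2.46. *Plcb1*, a phospholipase gene, fell from 227 and 329.7 CPM to 40.2 and 57.4 CPM on 5 and 14 UMIs, and was called with edgeR but not with cells thinned. It met the filter on low counts through the *Htr3a*- group, in which it was high. *Calb2* gave no UMI in *Htr3a*+ cells and 109 and 51 UMIs in *Htr3a*- cells, of which 87 and 24 lay in 2 cells of each library. *Htr3a*- members had met the rule through *Prox1*, *Sp8* or *Nr2f2*. The *Sp8*, *Prox1* and *Htr3a* splits use the same cells, so their genes are not independent of each other.

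The genes by which the descendants of the CGE are later known were detected in few members. *Vip* was detected in 0 of 184 and 0 of 271 members, with exact upper limits of 1.98% and 1.35%, which bound the share of cells with a UMI and not the share that express the gene. *Calb2* was detected in 4.89% and 5.90% of the members, against 3.51% and 3.02% of *Neurod6*+ cells of higher depth, and in 3.20% against 1.20% with cells thinned. *Reln* was detected in 17.4% and 15.5% of the members, against 5.71% and 4.20% of *Neurod6*+ cells. *Sst* was detected in 10.3% and 5.54% of the members and in 7.86% and 6.67% of *Neurod6*+ cells. With cells thinned these shares were 5.43% and 4.06% against 2.003% and 1.71%, and the levels were 23.5 and 20.3 CPM against 11.1 and 12.9 CPM, which is far below the level in *Lhx6*+ cells. *Npy*, at 7.07% and 6.27%, was below its share in the deeper *Neurod6*+ cells (9.96% and 8.90%), and with cells thinned the shares were 3.26% and 2.95% against 3.36% and 3.94%, so these data do not show *Npy* in a larger share of the members than of cells of another type. Of 9 neuropeptide genes tested against *Lhx6*+ cells, *Npy*, *Cck* and *Sst* were lower and none was higher, where 2.90% of all genes were lower and 2.98% higher (median log2 fold change -0.42).

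The genes of the study's own question were measured in the members too. *Dnmt1* was at 31.7 and 38.8 CPM in *Adarb2*+ cells and 53.9 and 41.7 CPM in *Lhx6*+ cells (log2 fold change -0.34, SE 0.22, edgeR adjusted p = 0.52), and was detected in 13.0% and 15.1% of the members. Of 14 genes of DNA methylation and demethylation, 1 passed against *Lhx6*+ cells, where 5.88% of all genes did. It was *Gadd45g*, which was higher by 1.29 (median of the 14, 0.08). *Nrxn3*, a presynaptic neurexin gene, was at 17705 and 16219.7 CPM in *Adarb2*+ and 15322 and 14114 CPM in *Lhx6*+ cells (log2 fold change 0.25, SE 0.10, edgeR adjusted p = 0.18). It was higher than in *Meis2*+ cells by 1.03 and than in *Isl1* or *Ebf1*+ cells by 1.49 on the log2 scale. *Efnb2* was at 165 and 159 CPM and did not pass against *Lhx6*+ cells (log2 fold change -0.20, SE 0.16, edgeR adjusted p = 0.63), *Meis2*+ cells (0.39) or *Isl1* or *Ebf1*+ cells (0.34). *Epha4* was at 339.8 and 304 CPM against 394 and 212 CPM in *Lhx6*+ cells (log2 fold change 0.19, SE 0.15, edgeR adjusted p = 0.63), and against *Meis2*+ and *Isl1* or *Ebf1*+ cells it fell by 0.54 and 0.61 on the log2 scale. In fits of 2 gates alone *Nrxn3* passed against *Lhx6*+ cells (0.23) and *Efnb2* against *Meis2*+ cells (0.40). Both calls of *Epha4* were lost without the replicate block (edgeR adjusted p = 0.16 and 0.11).

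Markers of other cell types were also present in the members. Excitatory neuron markers summed to 81.1 and 88.7 CPM over 11 genes, against 93.5 and 61.2 CPM in *Lhx6*+ cells. Microglial markers summed to 52.9 and 26.2 CPM over 7 genes against 215 and 33.8 CPM, with a median log2 fold change of -1.39, and endothelial and mural markers to 22.3 and 51.5 CPM against 51.7 and 51.1 CPM. Globin and other erythroid markers summed to 2307 and 1814 CPM over 6 genes, where *Lhx6*+ cells had 2880 and 6149 CPM. The Cajal-Retzius list summed to 236 and 149 CPM in the members, a list that holds *Reln* and *Calb2* and of which *Ebf3* was at 0 and, against *Lhx6*+ cells, *Calb2* was higher and *Reln* and *Cacna2d2* were lower. None of the 7 microglial, 8 endothelial, 5 erythroid or 9 dissociation and stress genes tested passed between *Adarb2*+ and *Lhx6*+ cells, which at a share of 5.88% over all genes is near that share and says little about these markers. Of the 11 excitatory markers *Eomes* was lower, a call that was lost against *Lhx6*+ cells with at least 2 *Lhx6* UMIs, where its log2 fold change was 0.54 (edgeR adjusted p = 0.92), and of the 12 progenitor and glial markers *Sox2* and *Pax6* were higher. Their part in the other differences was not tested.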

How the data were processed

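The 2 libraries are 10x droplet single-cell RNA libraries of WT cortex. The authors deposited, for each, a filtered matrix of raw UMI counts per gene and barcode (32285 genes) made with Cell Ranger, version 7.0.0 in the submitters' processing notes and 7.1.0 in the matrix headers, on build mm10. Both columns of cells were used, and no deposited column was left out.

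Barcodes with 1500 to 60000 UMIs and under 10% mitochondrial UMIs were kept. Likely doublets were kept in the main results, and the alternative without them removed 432 and 1111 cells by Scrublet score (0.8% per 1000 barcodes, since the automatic threshold marked none in replicate 1). Counts were summed per library and gate, and these sums, not cells, were tested with the quasi-likelihood test of edgeR 4.0.16 in R 4.3.3 (TMM factors, library as a block, only genes that reached 10 counts in 2 or more sums, the 15 gate genes left out, Benjamini-Hochberg adjusted p under 0.05). The fit of the 5 gates held 10 sums and each split of the members 4. SE is the standard error of the log2 fold change. Each gate comes from the same 2 libraries, so sums with the same number are paired by the library. No library was doubted. Cells were clustered with scanpy 1.11.5 and leidenalg 0.10.2 (2000 variable genes, 30 principal components, 20 neighbours, resolution 1). Depth per library and per group limits low genes, and shares carry exact binomial 95% intervals. Coordinates and promoters are from RefSeq on GRCm38.p6, the assembly of mm10, matched for 350 of 352 genes. Alternatives were RLE factors, DESeq2 1.42.0, no filter on low counts, no block, thinned cells, doublets removed, stricter gates, and, chosen after seeing the data, members without *Meis2*.

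The members, gates and 19 gene lists were chosen with earlier results of these data known. Genes named are the rule genes, the genes of the study's question, the 5 called genes with the largest change each way (at least 20 CPM in the higher group, 10 UMIs in the lower, same direction in both libraries), and up to 4 called genes per list, and members of the CGE and neuropeptide lists could be named at any value. Other list members named were chosen after their values were seen. Values of some genes are not reported here.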

Additional observations from a re-analysis of the deposited data

Results flagged for a closer look

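Barcodes removed by the limits on UMIs and mitochondrial share lie outside the comparisons, and some met the gene conditions for *Adarb2*+ cells. In replicate 1 these were 46 of 3083 removed barcodes (1.49%), where a count of 0 would allow 0.0973%. In replicate 2 these were 17 of 3309 (0.514%), where a count of 0 would allow 0.0907%. The series has no control library to set these values against, and the limits cover counting error only.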

How the results depend on the processing

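Of 3563 values of 320 named fold changes under the alternatives, 3117 kept their direction and call, 248 lost the call, 13 gained it, 159 single-library ratios moved by more than the spread between replicates and 26 turned. The cause was not tested unless the setting has fewer cells or genes by its construction. Against *Lhx6*+ cells 600 genes passed without the *Meis2*+ members. Against *Meis2*+ cells 599 passed with DESeq2, 574 with thinned cells and 1426 with only these gates in the fit, and against *Isl1* or *Ebf1*+ cells 726 with DESeq2 and 681 with thinned cells. In the *Sp8* and *Nr2f2* split 69 passed with DESeq2, 72.5% of them higher in place of 59.1%, 372 with no filter, 401 without doublets and 87 with thinned cells. In the *Prox1* split 19 passed with DESeq2, 10.53% of them higher in place of 32.2%, and 64 with thinned cells. In the *Htr3a* split 77 passed with RLE factors, 16 with DESeq2, 192 with no filter, 148 without doublets and 68 with at least 2 *Adarb2* UMIs. Without the replicate block the counts were 751, 778, 963, 257, 120 and 72, in the order of the report, of which that of the *Htr3a* split moved by over 1.5 times. Leaving out a library left no residual degrees of freedom and so no count of genes.

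The share of members was 2.52% with at least 3000 UMIs, 1.54% when cells were thinned before the rule, and 2.64% to 3.08% with either library left out. Over the same thinning *Prox1* was detected in 35.1%, *Sp8* in 26.9% and *Nr2f2* in 56.3% of members. *Nr2f2* was at 60.7% without doublets, 66.5% with at least 3000 UMIs and 64.8% with a mitochondrial limit of 5%, where *Htr3a* was at 20.3%. With a library left out, *Prox1* ranged from 44.3% to 49.5%, *Sp8* from 36.9% to 42.9%, *Nr2f2* from 61.3% to 62.5% and *Htr3a* from 12.5% to 17.7%.

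Log2 fold changes that turned without the *Meis2*+ members, against *Lhx6*+ cells, were *Erbb4* 0.39, *Epha4* -0.39, *Reln* 0.20, *Foxp2* -1.13, *Foxp4* -1.13, *Six3* -0.39, *Robo2* -0.060, *Tshz1* -0.11 and *Unc5c* -0.90. Against *Meis2*+ cells they were *Efnb2* -0.056, *Etv1* -3.18, *Foxp2* -3.25 and *Tshz1* -0.49, and against *Isl1* or *Ebf1*+ cells *Efnb2* -0.10 and *Etv1* -1.53. Among members with at least 2 markers they were *Erbb4* 0.017, *Calb2* -0.78, *Six3* -0.38 and *Unc5c* -1.06 against *Lhx6*+ cells and *Calb2* -0.89, *Etv1* -0.065 and *Tshz1* -0.16 against *Meis2*+ cells. *Cxcl12* was at 0.048 without doublets, *Eomes* at 0.54 with *Lhx6*+ cells of at least 2 *Lhx6* UMIs, *Sst* at 0.32 against *Meis2*+ cells with thinned cells, and *Dlx2* at -0.060 in the *Sp8* split with thinned cells.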
